A study of Homo sapiens with 8 samples.

Results

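SI-2 against vehicle in WT LP-1 cells was a comparison of 4 of the 8 RNA-seq libraries of the series, chosen by their labels alone. LP-1 is an established human multiple myeloma cell line, and WT cells are those not selected for resistance to bortezomib. Of the 4 libraries, 2 came from WT cells exposed to 25 nM SI-2 for 24 h and 2 from WT controls, which the titles call DMSO and a treatment field calls untreated. The other 4 libraries held the same pair of conditions in bortezomib-resistant (BR) LP-1 cells, derived over 2 months of exposure to bortezomib. All were grown in the same serum-containing medium, and the question here was whether SI-2 altered gene expression in cells that had not acquired resistance. A single line was used, and whether the 2 libraries of a condition came from separate cultures is not given in the labels, so the p-values measure only the spread between these libraries.

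SI-2 is a small-molecule inhibitor of SRC-3, the coactivator encoded by NCOA3, and lowers the amount of SRC-3 protein. SRC-3 is brought to promoters and enhancers by nuclear receptors and other transcription factors. There it recruits the histone acetyltransferases CREBBP and EP300 and the arginine methyltransferases PRMT1 and CARM1. LP-1 carries the translocation that places NSD2, a histone H3 lysine methyltransferase, under the immunoglobulin heavy chain enhancer. Plasma cells and myeloma cells secrete large amounts of immunoglobulin, and they depend on endoplasmic reticulum (ER) chaperones and on the proteasome.

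The 4 WT libraries held 17997771 and 18279494 estimated counts with vehicle and 18085584 and 18248791 with SI-2, so depth was nearly equal. All 11 myeloma and plasma cell markers passed the filter on low counts, and their summed FPKM lay between 4321 and 5982 in the 4 libraries. FPKM scales a count by gene length and library size. The deposited gene table held 28 of the listed markers of T and NK, myeloid, stromal and endothelial, and epithelial cells. Of these 28 markers, 9 passed the filter and 4 had no count at all. Their summed FPKM was between 20.6 and 27.7 with vehicle and between 21.1 and 27.5 with SI-2. In these bulk samples, fewer cells expressing a gene and less of its RNA per cell cannot be told apart.

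No gene passed the test of SI-2 against vehicle in WT cells. In edgeR's quasi-likelihood test of 13896 genes, 0 (0%) had a Benjamini-Hochberg adjusted p under 0.05, and the smallest adjusted p was 0.43. The unadjusted p was under 0.05 for 74 genes (0.533%), 37 of them higher and 37 lower with SI-2, where a uniform spread of p-values would put 694.8 genes. DESeq2, run as an alternative, called 1 gene, ANKRD20A2, whose counts are examined with those of its family. Another alternative, a fit chosen after seeing the data, called more genes and is given in the closing section. The median log2 fold change over all tested genes was 0.00, and it lay above 0 for 6963 genes (50.1%) and below 0 for 6931 (49.9%). The middle of the distribution was narrow, with 5% of genes below −0.38 and 5% above 0.37. For 1509 genes (10.9%) both SI-2 values exceeded both vehicle values, and for 1712 (12.3%) both were smaller.

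The same fit limited how large an undetected difference could have been. The 95% interval of the fold change lay within 2-fold in either direction for 10781 genes (77.6%) and within 1.5-fold for 5572 (40.1%). These limits followed expression level. Among 2351 genes with a mean of at least 100 CPM, the count scaled by library size, 95.7% had an interval within 2-fold, and at the median it reached 1.33-fold to either side. Among 7025 genes between 10 and 100 CPM the share was 94.6%, with a median reach of 1.37-fold. It was 55.6% of 3370 genes between 1 and 10 CPM, and 1.22% of 1150 genes below 1 CPM. A change of 2-fold therefore could not be bounded for most genes near the detection limit, and was bounded for most abundant genes.

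**Figure D1:**
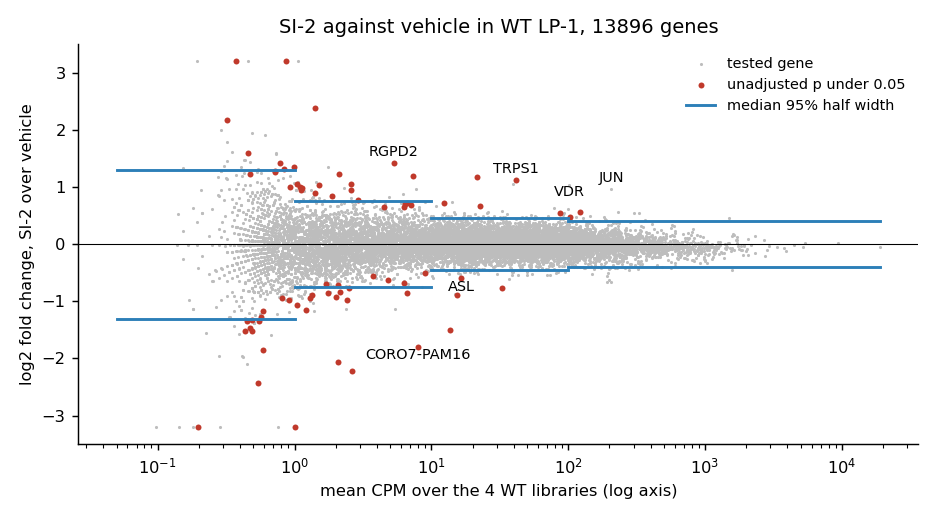
Log2 fold change of SI-2 over vehicle in WT LP-1 against mean CPM (log axis), 1 point per gene for 13896 genes, with values beyond 3.2 drawn at 3.2; red points are the 74 genes at an unadjusted p under 0.05, and the blue lines are the median reach of the 95% interval to either side in each of 4 ranges of CPM. The cloud is centred on 0 and narrows as expression rises, and most red points lie at lower CPM.

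The libraries did not group by treatment. Over 9376 genes with a mean of at least 10 CPM, the root mean square difference between both vehicle libraries was 0.30 on the log2(CPM + 2) scale, and 550 genes were at least 1.5-fold apart. Between both SI-2 libraries it was 0.34, with 806 genes at least 1.5-fold apart. SI-2 replicate 1 and vehicle replicate 1 differed by 0.27, with 321 such genes. SI-2 replicate 2 and vehicle replicate 2 differed by 0.12, with only 7 such genes. The last pair, of opposite treatment, was thus the closest of the 6 pairs that the 4 libraries form.

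**Figure D2:**
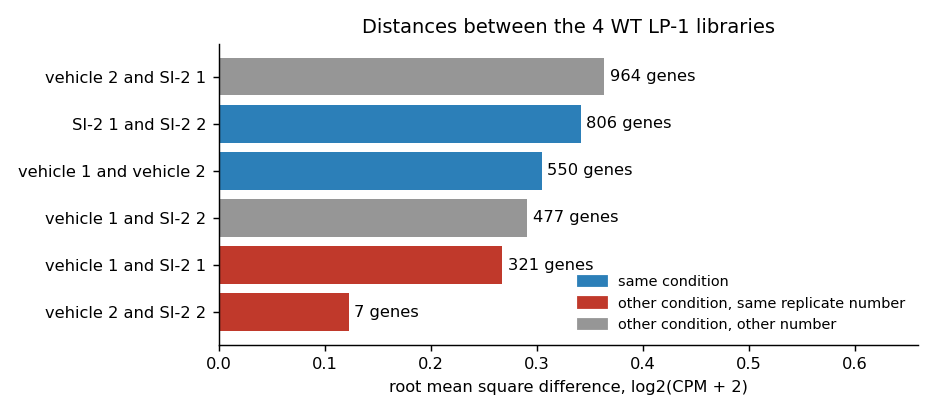
Root mean square difference between each pair of the 4 WT LP-1 libraries over 9376 genes, on the log2(CPM + 2) scale, with the number of genes at least 1.5-fold apart beside each bar. The pair of vehicle replicate 2 and SI-2 replicate 2 has 7 such genes, and the pair of SI-2 libraries has 806.

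These distances were set against counting error on genes with whole counts in all 8 libraries (within 0.005), meaning no read divided among genes, and with at least 20 counts in the pair, which left 5381 genes for the first pair below and 5310 to 5589 over all pairs. A chi-square of 1 degree of freedom per gene has an expected mean of 1 and an expected median of 0.455 when libraries differ by counting error only. It had a mean of 4.10 and a median of 1.13 between vehicle replicate 2 and SI-2 replicate 2. The corresponding pair in BR cells had a mean of 4.82 and a median of 0.926. In the other 26 of the 28 pairs of the series the mean lay between 16.9 and 74.2 and the median between 2.59 and 10.9. The second SI-2 library of WT cells therefore stood much nearer to a vehicle library than to the other SI-2 library, and list results that lead the text are given with and without SI-2 replicate 1.

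Of the 7 genes at least 1.5-fold apart in replicate 2, SLC30A1, which encodes a zinc exporter, was the only member with whole counts in every library. It was named after its values had been seen. Its counts were 193 and 137 with vehicle and 330 and 225 with SI-2, so the groups did not overlap. The log2 fold change was 0.72 with a 95% interval from 0.03 to 1.42 (SE 0.31, n = 2 libraries a side, edgeR adjusted p near 1). In BR cells its CPM was 8.82 and 13.2 with vehicle and 18.1 and 12.8 with SI-2, so the groups overlapped there. The other 6 genes had reads divided among genes.

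The difference between SI-2 and vehicle in replicate 1 of WT cells was seen again in replicate 1 of BR cells, which shared no library with it. Over 9214 genes with a mean of at least 10 CPM in both lines, Pearson's r between these differences was 0.73. Between replicate 2 of WT cells and replicate 2 of BR cells it was 0.066, and between both replicates of WT cells it was 0.11. These are correlations across genes, which are not independent replicates, and the libraries of a line share their cell stock and counting. The labels do not say whether libraries with the same number were cultured or prepared together, and treatment, culture and preparation within a replicate number cannot be told apart.

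**Figure D3:**
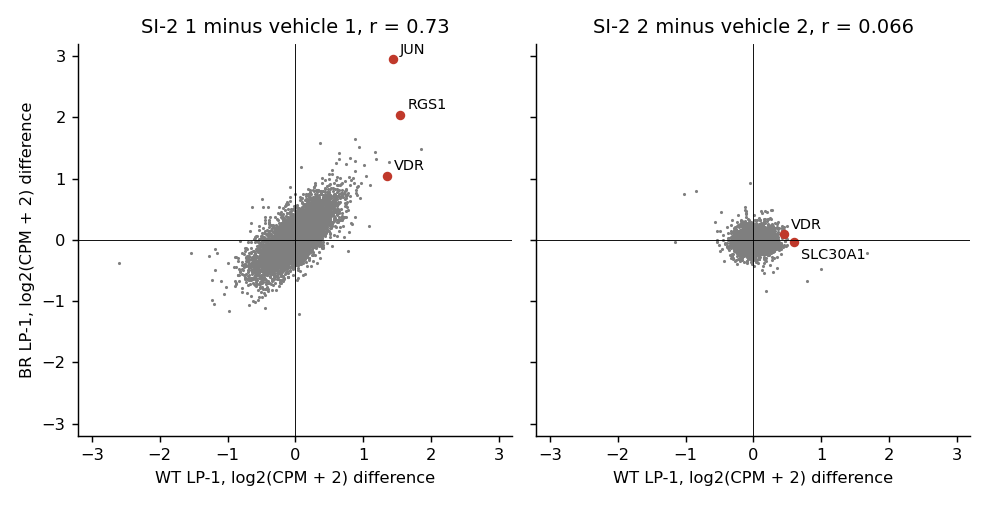
Difference of log2(CPM + 2), SI-2 minus vehicle, in WT LP-1 (x axis) and BR LP-1 (y axis), 1 point per gene for 9214 genes, for replicate 1 (left) and replicate 2 (right), with selected genes in red. The replicate 1 cloud is drawn out along the diagonal (r = 0.73), and the replicate 2 cloud is small and round (r = 0.066).

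In WT replicate 1, 134 of the 9214 genes were at least 1.5-fold higher with SI-2 and 170 at least 1.5-fold lower. The BR replicate 1 difference was past 1.5-fold in the same direction for 85 and 43 of these. Among all 9214 genes, BR replicate 1 passed that limit for 300 upward and 130 downward. In WT replicate 2 the same limit was passed by 4 genes upward and 3 downward. SLC30A1 was the 1 gene past it in both WT replicates.

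JUN, a subunit of the AP-1 transcription factor, was among the genes furthest apart in replicate 1. Its counts were 2305 and 2647 with vehicle, 6501 in SI-2 replicate 1 and 3358 in SI-2 replicate 2. The groups did not overlap, but the SI-2 libraries lay further from each other than either vehicle library lay from SI-2 replicate 2. The log2 fold change was 0.97 with a 95% interval from −0.30 to 2.24.

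RGS1, a regulator of G protein signalling, had counts of 233 and 238 with vehicle and 773 and 305 with SI-2 (log2 fold change 1.17, 95% interval 0.01 to 2.33). DUSP8, a phosphatase of JNK and p38, had 70 and 90 with vehicle and 245 and 128 with SI-2 (1.20, interval 0.01 to 2.39). RAB30, a small GTPase of the Golgi, had 532 and 388 with vehicle and 1492 and 457 with SI-2. In this last gene vehicle replicate 1 lay above SI-2 replicate 2, so the groups overlapped. TRPS1, a GATA-type transcriptional repressor, had 355 and 573 with vehicle and 1421 and 631 with SI-2 (1.12, interval 0.17 to 2.08). Each of these 5 genes was high in SI-2 replicate 1 above all.

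JUN was higher in BR replicate 1 as well, at 64.4 CPM with vehicle and 513 CPM with SI-2, and nearly equal in BR replicate 2, at 212 and 206 CPM. RGS1 followed the same order in BR cells, with 10.5 and 49.4 CPM in replicate 1 and 20.1 and 20.4 CPM in replicate 2. The BR effect and the WT effect were compared by the interaction term of the fit, which called 0 of 13896 genes (0%), with 74 (0.533%) at an unadjusted p under 0.05. The smallest adjusted p of that term with edgeR was near 1. DESeq2 called 1 gene in it, the read-through transcript CORO7-PAM16.

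Among the genes with the smallest unadjusted p, several kept both libraries of a group close together. GADD45B, a stress-inducible growth arrest and DNA damage gene, had counts of 1644 and 1447 with vehicle and 2374 and 1977 with SI-2. Its log2 fold change was 0.47 (SE 0.18, interval 0.06 to 0.88, unadjusted p = 0.0284 from the edgeR fit). KCNH2, a potassium channel gene, had 77 and 98 with vehicle and 137 and 150 with SI-2, a log2 fold change of 0.69. Both were higher in both SI-2 libraries than in either vehicle library.

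On the lower side, ASL, which encodes argininosuccinate lyase of the urea cycle and arginine synthesis, had counts of 346 and 367 with vehicle and 228 and 249 with SI-2. Its log2 fold change was −0.60 (SE 0.21, interval −1.07 to −0.13, unadjusted p = 0.0182 from the edgeR fit). GNG4, a G protein gamma subunit, had 101 and 107 with vehicle and 66 and 71 with SI-2, a log2 fold change of −0.62. LOC112267959, an uncharacterised locus, had 120 and 157 with vehicle and 87 and 87 with SI-2. In ASL and GNG4 the groups were further apart than the libraries within them, yet no adjusted p of these genes was under 0.05.

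Many of the genes with small p-values share reads with other genes, as many tested genes do. Of the 74 genes at an unadjusted p under 0.05, 52 (70.3%) lacked whole counts, within 0.005, in at least 1 library, against 60.3% of all tested genes, and the difference between these shares was not tested. ANKRD20A2, the gene called by DESeq2, had 0 counts in both vehicle libraries and 38 and 25 with SI-2. Against a floor of 3 counts in each vehicle library this is at least 10.55-fold higher. The sum over the 4 near-identical ANKRD20A genes was 116 and 122 with vehicle and 113 and 115 with SI-2, so the family as a whole held nearly the same number of reads in each library.

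Read-through transcripts were set beside the sum of their locus in the same way. CORO7-PAM16 had counts of 215 and 226 with vehicle and 77 and 51 with SI-2, while the sum of CORO7, PAM16 and the read-through was 4800 and 6258 with vehicle and 4715 and 6937 with SI-2. PTCD1 had 280 and 343 with vehicle and 521 and 480 with SI-2, and the overlapping ATP5MF-PTCD1 had 376 and 342 with vehicle and 34 and 223 with SI-2. The sum with ATP5MF was 2519 and 2355 with vehicle and 2616 and 2234 with SI-2. In both loci the summed counts of the groups overlapped.

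RGPD2 had 35 and 68 counts with vehicle and 136 and 144 with SI-2, whereas the 7 RGPD genes together had 1585 and 1845 with vehicle and 1734 and 1690 with SI-2. PHOSPHO2-KLHL23 had 112 and 83 with vehicle and 182 and 135 with SI-2, in a locus whose sum was 396 and 663 with vehicle and 622 and 641 with SI-2. In C8orf44-SGK3 the counts were 127 and 178 with vehicle and 81 and 90 with SI-2. The sum of that locus was 663 and 594 with vehicle and 530 and 553 with SI-2, and its groups did not overlap. NPIPA3 had 572 and 909 with vehicle and 491 and 385 with SI-2, and its 6-gene family had 3336 and 4001 with vehicle and 2947 and 3431 with SI-2. HSPE1-MOB4 had 27 and 94 with vehicle and 14 and 15 with SI-2, and RNF103-CHMP3 had 49 and 105 with vehicle and 0 and 33 with SI-2. The uncharacterised locus LOC102724219 had 8 and 8 with vehicle and 32 and 53 with SI-2, and LOC102724951 had 60 and 11 with vehicle and 0 and 0 with SI-2. These 4, with JUN, VDR, RGS1, DUSP8, RAB30 and several of the loci above, are named because an alternative fit chosen after seeing the data called them. The values of the genes that share reads are uncertain, because the division of shared reads among them was not tested.

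The gene of the drug target was measured first among the coactivators. NCOA3 had an FPKM of 19.1 and 22.6 with vehicle and 27.7 and 21.7 with SI-2. The libraries overlapped, since SI-2 replicate 2 lay between both vehicle libraries. The log2 fold change was 0.23 with a 95% interval from −0.21 to 0.66, which is a fold of 0.867 to 1.58 (edgeR adjusted p near 1). A fall or rise of NCOA3 mRNA by 2-fold lay outside this interval, and the amount of SRC-3 protein was not measured by RNA-seq.

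The paralogs NCOA1 (SRC-1) and NCOA2 (SRC-2) had FPKM values below those of NCOA3 in every library. NCOA1 was at 5.74 and 6.91 with vehicle and 7.36 and 6.53 with SI-2, and NCOA2 at 11.96 and 16.59 with vehicle and 15.7 and 15.7 with SI-2. Their log2 fold changes were 0.16 (interval −0.26 to 0.58) and 0.12 (−0.31 to 0.54). On the FPKM scale the order NCOA3, NCOA2, NCOA1 was the same in each of the 4 libraries.

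NSD2, the gene of the translocation, was, after PRMT1, the most abundant of the 12 genes of this list, with an FPKM of 71.0 and 74.4 with vehicle and 85.5 and 78.5 with SI-2. Its groups did not overlap, but the log2 fold change was 0.16 with an interval from −0.19 to 0.50. CREBBP had a log2 fold change of 0.19 (interval −0.22 to 0.59) and EP300 of 0.15 (−0.29 to 0.60). PRMT1 was at −0.06 (−0.52 to 0.39) and CARM1 at 0.03 (−0.39 to 0.45). Of the 12 coactivators and partner enzymes tested, 11 had a log2 fold change above 0, with a median of 0.16. With SI-2 replicate 1 left out, 9 were above 0 and the median was 0.08. Between SI-2 and vehicle replicate 2 the differences split evenly, 6 above and 6 below 0, with a median of −0.01.

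**Figure D4:**
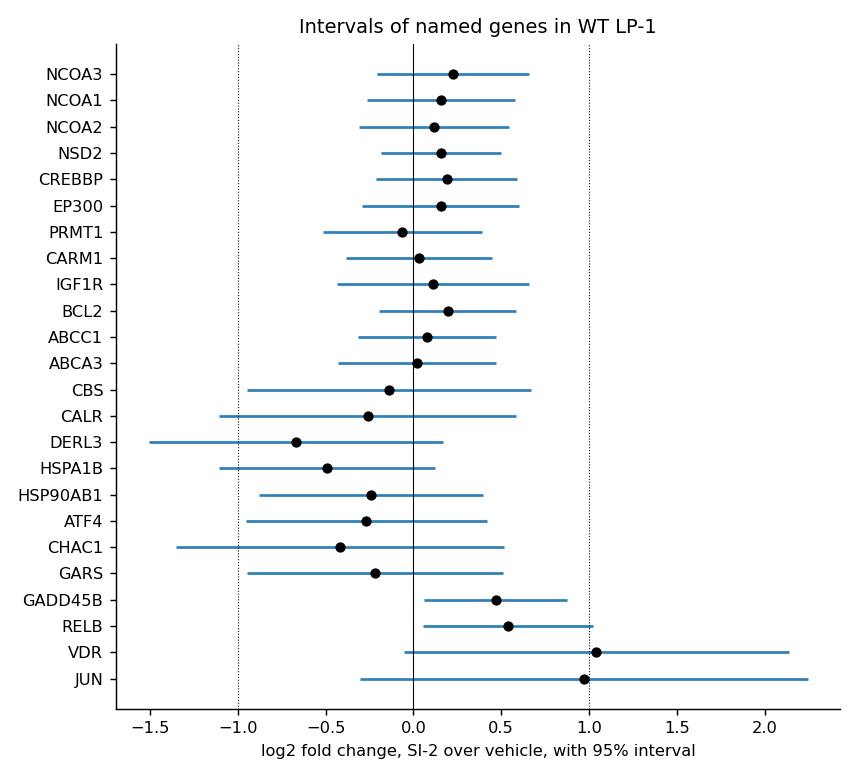
Log2 fold change of SI-2 over vehicle in WT LP-1 with its 95% interval for 24 named genes, from 2 libraries a side in the fit over 8 libraries, with dotted lines at 2-fold. The intervals of NCOA3, NSD2 and their partners cross 0 and stay within 2-fold, and those of CALR, VDR and JUN reach past it.

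Genes that the study linked to SRC-3 in myeloma gave similar values. The study chose them, so they are no independent list. It showed such genes with SI-2 in bortezomib-resistant cells, whereas the values here are from WT cells. IGF1R, the receptor of insulin-like growth factor 1, had counts of 1896 and 2678 with vehicle and 2035 and 2964 with SI-2 (log2 fold change 0.11, interval −0.43 to 0.66). BCL2, the anti-apoptotic target of venetoclax, had 6426 and 6131 with vehicle and 8468 and 6136 with SI-2 (0.19, interval −0.19 to 0.58). CBS, which makes cystathionine from homocysteine, had 681 and 758 with vehicle and 433 and 889 with SI-2, with an interval from −0.95 to 0.67. CBS shares reads with the near-identical CBSL. EGR1, an immediate early transcription factor, was low and spread widely, at 76 and 19 with vehicle and 72 and 26 with SI-2.

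The ABC transporters of that list split by expression. The drug efflux pump ABCC1 had counts of 2116 and 2214 with vehicle and 2289 and 2341 with SI-2 (log2 fold change 0.08, interval −0.32 to 0.47). ABCA3 was at 0.02 (interval −0.43 to 0.47). ABCA2, with 9 to 13 counts a library, could not be bounded within 2-fold. FAM53A, which is no transporter and which the text of the study names only among its primers, had 10 to 15 counts. ABCB1, which encodes P-glycoprotein, had 1 and 3 counts with vehicle and 0 and 1 with SI-2, and it was left out of the test with ABCC3, ABCG5, TNC and CCL4, which had at most 8 counts in a library.

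Pathway directions were examined in 22 gene lists that held 361 tested genes in all, of which 0 were called and 1 had an unadjusted p under 0.05. In 35 of these genes (9.70%) both SI-2 values exceeded both vehicle values and in 53 (14.7%) both were smaller, against 10.9% and 12.3% of all tested genes. The median log2 fold change was above 0 in 12 lists and below 0 in 10, between −0.26 and 0.29. The interval lay within 2-fold for 285 of the listed genes (78.9%). By the mean log2 CPM of a list, the SI-2 pair exceeded the vehicle pair in 4 lists, was smaller in 4, and overlapped it in the other 14.

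**Figure D5:**
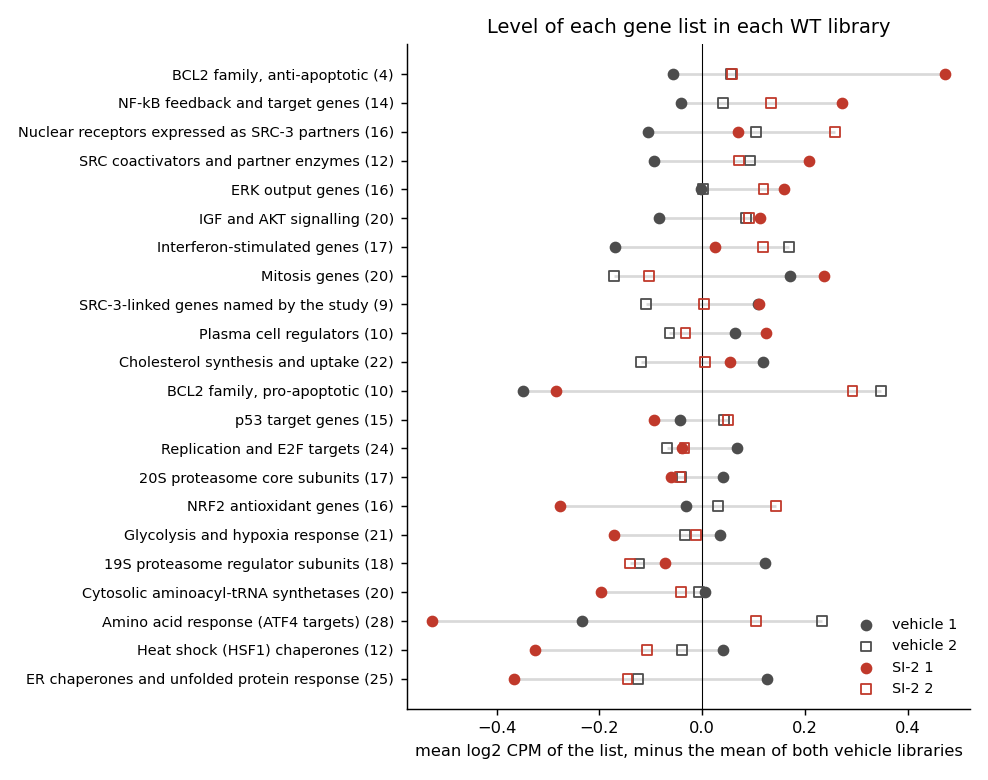
Mean log2 CPM of the tested members of 22 gene lists in each WT LP-1 library, as the difference from the mean of both vehicle libraries, with the number of members in brackets; filled circles are replicate 1 and open squares replicate 2. The ER chaperone list spans from 0.13 in vehicle replicate 1 to −0.37 in SI-2 replicate 1, and both of its replicate 2 libraries lie close together.

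ER chaperones and the unfolded protein response gave the lowest median of the 22 lists, at −0.26, against 0.00 over all tested genes. Of 25 members, 23 had a log2 fold change below 0, yet 0 were called. In 12 of them both SI-2 libraries were below both vehicle libraries, against 12.3% of all tested genes. The mean log2 CPM of the list was 8.73 and 8.48 with vehicle and 8.24 and 8.46 with SI-2. SI-2 replicate 1 was the low library, and SI-2 replicate 2 lay at a difference of −0.02 from vehicle replicate 2 on that scale. Leaving out SI-2 replicate 1 gave a median of −0.13, with 22 of 25 members below 0, and leaving out vehicle replicate 1 gave −0.13 with 20. Between SI-2 and vehicle replicate 2 the differences were split, with 12 above and 13 below 0 and a median of −0.01. Since SI-2 replicate 2 stood near vehicle replicate 2, the median without SI-2 replicate 1 also carries the difference between the vehicle libraries.

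DERL3, a component of ER-associated degradation that is abundant in plasma cells, had counts of 5451 and 3453 with vehicle and 2377 and 3315 with SI-2 (log2 fold change −0.67, interval −1.51 to 0.17). SEL1L, the adaptor of the ubiquitin ligase SYVN1, had 10233 and 9367 with vehicle and 6836 and 8288 with SI-2 (−0.40, interval −1.13 to 0.34). CALR, a calcium-binding lectin chaperone, had 19213 and 18702 with vehicle and 13838 and 18241 with SI-2 (−0.26, interval −1.11 to 0.58). P4HB, a protein disulfide isomerase, had 27611 and 30367 with vehicle and 22981 and 30963 with SI-2, so it overlapped. In the first 3 genes both SI-2 libraries were lower than both vehicle libraries, and SI-2 replicate 1 was the lowest.

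Some promoters of this list carry an ER stress response element (ERSE), written here as CCAAT and CCACG with 9 bases between them, which is bound by NF-Y and by ATF6. In RefSeq promoters of GRCh38.p14, taken from 250 bases before to 50 bases after the gene start and searched on both strands, 5 of 22 matched members held it, against 0.0806% of 27305 promoters. The sequences are shown because the list they mark has the lowest median. The capitals mark the element, read 5′ to 3′ on the strand of the gene. HSP90B1 also held a reversed element at chr12:103930301-103930359, which is not shown.

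HSPA5, chr9:125241371-125241429, minus strand: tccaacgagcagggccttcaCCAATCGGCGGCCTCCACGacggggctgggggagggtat
HSP90B1, chr12:103930196-103930254, plus strand: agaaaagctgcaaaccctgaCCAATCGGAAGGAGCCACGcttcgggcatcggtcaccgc
CANX, chr5:179698758-179698816, plus strand: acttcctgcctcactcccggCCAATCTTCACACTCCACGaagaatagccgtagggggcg
CALR, chr19:12938364-12938422, plus strand, element reversed: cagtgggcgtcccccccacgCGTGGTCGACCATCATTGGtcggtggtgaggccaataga
CRELD2, chr22:49918534-49918592, plus strand, element reversed: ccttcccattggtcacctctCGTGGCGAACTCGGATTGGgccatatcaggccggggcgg

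The 5 genes with the element had log2 fold changes of −0.29 for HSPA5, −0.16 for HSP90B1, −0.04 for CANX, −0.26 for CALR and −0.33 for CRELD2. HSPA5, the ER chaperone BiP, had counts of 15672 and 16165 with vehicle and 11426 and 15060 with SI-2. CANX, a lectin chaperone like CALR, had 33802 and 35848 with vehicle and 32871 and 35771 with SI-2, so its groups overlapped. A match is a description of the letters, and binding of a factor was not measured.

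Heat shock chaperones, the targets of HSF1, had a median of −0.17, with 12 of 12 members below 0. In 7 members both SI-2 libraries were below both vehicle libraries, against 12.3% of all tested genes. The list's mean log2 CPM was 6.63 and 6.55 with vehicle and 6.26 and 6.48 with SI-2. HSPA1B, an inducible cytosolic HSP70, had counts of 921 and 700 with vehicle and 501 and 669 with SI-2 (log2 fold change −0.49, interval −1.11 to 0.12), and it shares reads with its near-identical neighbour HSPA1A. HSP90AB1, the constitutive cytosolic HSP90, had 25577 and 27916 with vehicle and 19457 and 26383 with SI-2 (−0.24, interval −0.88 to 0.39). Without SI-2 replicate 1 the median of the list was −0.09, with 11 of 12 members below 0. Between SI-2 and vehicle replicate 2 it was −0.07, with 10 below 0.

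A heat shock element, written as GAA, TTC and GAA with 2 bases between each, was found in 2 of 12 promoters of this list and in 0.487% of all promoters. HSPA8, the constitutive HSP70, held it on both strands, and 1 copy is shown with its capitals as the element.

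HSPA8, chr11:123062334-123062386, minus strand: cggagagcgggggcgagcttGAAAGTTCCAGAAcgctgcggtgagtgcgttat

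HSPA8 counts were 6738 and 7098 with vehicle and 4316 and 6707 with SI-2, a log2 fold change of −0.35. Again SI-2 replicate 1 was low and SI-2 replicate 2 stood near the vehicle libraries.

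The amino acid response, driven by ATF4, had a median of −0.20 with 26 of 28 members below 0, but this direction depended on which libraries were kept. The mean log2 CPM of the list was 6.63 and 7.10 with vehicle and 6.34 and 6.97 with SI-2, so the vehicle libraries were further apart than the groups. Without SI-2 replicate 1 the median was 0.07, with 8 of 28 members below 0, and without vehicle replicate 2 it was 0.03 with 12 below 0. Taken by replicate number, the median difference was −0.29 in replicate 1 and −0.11 in replicate 2 of WT cells, and −0.29 and −0.10 in BR cells.

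ATF4 itself had counts of 19765 and 24312 with vehicle and 13667 and 23371 with SI-2 (log2 fold change −0.27, interval −0.95 to 0.42). CHAC1, which degrades glutathione, had 620 and 947 with vehicle and 379 and 806 with SI-2 (−0.42, interval −1.35 to 0.52). ALDH1L2, a mitochondrial folate enzyme, had 32 and 37 with vehicle and 25 and 24 with SI-2 (−0.51, interval −1.22 to 0.19). MTHFD2, another mitochondrial folate enzyme, had 21244 and 22907 with vehicle and 17355 and 21080 with SI-2. The groups did not overlap in ALDH1L2 and MTHFD2, and they did in ATF4 and CHAC1.

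The amino acid response element, written as TGATGNAA, was present in 6 of 23 matched promoters of the list and in 3.67% of all promoters. ASNS, asparagine synthetase, is shown because its element is the textbook example, with the capitals marking the match.

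ASNS, chr7:97872449-97872496, minus strand: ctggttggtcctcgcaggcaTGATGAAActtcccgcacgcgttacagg

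ASNS counts were 14255 and 17181 with vehicle and 11373 and 14875 with SI-2, a log2 fold change of −0.28. Cytosolic aminoacyl-tRNA synthetases, several of which are ATF4 targets, had a median of −0.12, with 18 of 20 below 0. In 7 of the 20 both SI-2 libraries were below both vehicle libraries, against 12.3% of all tested genes. GARS, the glycyl-tRNA synthetase, had counts of 17061 and 20735 with vehicle and 13742 and 19155 with SI-2. AARS, the alanyl-tRNA synthetase, had 22078 and 21681 with vehicle and 21070 and 21437 with SI-2 (log2 fold change −0.06, interval −0.42 to 0.29). Without SI-2 replicate 1, 13 of 20 were below 0 and the median was −0.03. Between SI-2 and vehicle replicate 2, 16 were below 0 and the median was −0.04.

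Proteasome subunits, whose core is the target of bortezomib, had medians below 0. The 17 subunits of the 20S core had a median of −0.04, with 7 above and 10 below 0. Their mean log2 CPM was 6.59 and 6.51 with vehicle and 6.49 and 6.50 with SI-2, so the SI-2 pair was slightly lower. PSMB5, which carries the bortezomib-binding active site, had counts of 749 and 886 with vehicle and 609 and 897 with SI-2, a log2 fold change of −0.14. It was named for that role and not by its rank. PSMB6 was the furthest from 0, at −0.52 with an interval from −1.44 to 0.39. The 18 subunits of the 19S regulator had a median of −0.12, with 14 below 0, but leaving out vehicle replicate 1 turned it to 0.04 with 10 above 0. PSMD13 among them was at −0.34 with an interval from −0.93 to 0.25.

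Genes of survival signalling had medians above 0 that depended on single libraries. The 4 anti-apoptotic members of the BCL2 family had the highest median of the 22 lists, 0.29, which rested on SI-2 replicate 1. MCL1, a BCL2 relative on which myeloma cells depend, had counts of 24176 and 20731 with vehicle and 40034 and 22882 with SI-2 (log2 fold change 0.46, interval −0.13 to 1.05). The median of the list was 0.06 when SI-2 replicate 1 was left out. With 4 members the median lay between BCL2 (0.19) and BCL2L2 (0.38). BCL2L2 was near the detection limit, at 8 and 14 counts with vehicle and 17 and 12 with SI-2 (interval −0.82 to 1.57). Of the 10 pro-apoptotic members 0 had groups that did not overlap, against 10.9% (SI-2 higher) and 12.3% (SI-2 lower) of all tested genes. Their median was 0.11, and BAX was at 0.11 (interval −0.26 to 0.48). That median turned to −0.22 with 8 of 10 below 0 without vehicle replicate 1, and to −0.15 with 9 below 0 without SI-2 replicate 2. It rose to 0.25 without SI-2 replicate 1 and to 0.29 without vehicle replicate 2, each with 9 of 10 above 0. IGF and AKT signalling genes had a median of 0.09, with 15 of 20 above 0, and without vehicle replicate 1 the median was 0.00 with 11 above 0. AKT1 among them was at 0.07 (interval −0.29 to 0.43).

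NF-kB feedback and target genes had 13 of 14 members above 0 and a median of 0.16. In 5 members both SI-2 libraries were above both vehicle libraries, against 10.9% of all tested genes. RELB, a subunit of the non-canonical NF-kB dimer, was the 1 listed gene at an unadjusted p under 0.05. Its counts were 1253 and 1291 with vehicle and 2098 and 1654 with SI-2 (log2 fold change 0.54, interval 0.06 to 1.02, edgeR adjusted p near 1). TNFAIP3, the feedback inhibitor A20, had 5493 and 5514 with vehicle and 8642 and 6322 with SI-2 (0.42, interval −0.07 to 0.91). In both genes the vehicle libraries agreed closely and both SI-2 libraries were higher. Without SI-2 replicate 1 the list had 11 of 14 members above 0 and a median of 0.08. Between SI-2 and vehicle replicate 2, 9 were above 0 in WT cells, with a median of 0.12. In replicate 2 of BR cells 7 were above and 7 below 0.

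ERK output genes had a median of 0.18 with 12 of 16 above 0, which was 0.04 with 10 above 0 when vehicle replicate 1 was left out and 0.13 with 12 when SI-2 replicate 1 was. Between SI-2 and vehicle replicate 2 the median was 0.01, with 11 above 0. SPRY1, a feedback inhibitor of ERK signalling, had counts of 93 and 112 with vehicle and 147 and 113 with SI-2. ETV5, an ERK-induced ETS factor, went the other way, with 455 and 463 with vehicle and 244 and 401 with SI-2 (log2 fold change −0.53, interval −1.24 to 0.18). The list was low in expression, at a mean log2 CPM of 2.74 and 2.75 with vehicle and 2.90 and 2.86 with SI-2.

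Nuclear receptors, through which SRC-3 acts, had a median of 0.05, with 10 of 16 above 0. Without SI-2 replicate 1 the median was 0.30 with 11 above 0, and without vehicle replicate 1 it was −0.04 with 7 above 0. VDR, the vitamin D receptor, had counts of 1321 and 1046 with vehicle, 3529 in SI-2 replicate 1 and 1434 in SI-2 replicate 2. Its groups did not overlap, and the log2 fold change was 1.04 with an interval from −0.06 to 2.14 (unadjusted p = 0.0623 from the edgeR fit). In BR cells VDR was at 88.2 and 234 CPM with vehicle and 185 and 251 CPM with SI-2, so vehicle replicate 2 exceeded SI-2 replicate 1. NR3C1, the glucocorticoid receptor through which dexamethasone acts in myeloma, had 5641 and 7530 with vehicle and 6712 and 7084 with SI-2 (0.05, interval −0.40 to 0.50). ESR1, the oestrogen receptor, had 135 to 179 counts a library.

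Regulators of plasma cell identity were evenly divided, with 5 above and 5 below 0. IKZF3, a lenalidomide target, had counts of 2773 and 3015 with vehicle and 4414 and 3369 with SI-2 (log2 fold change 0.41, interval −0.19 to 0.999). IRF4, on which myeloma cells depend, had 23129 and 15829 with vehicle and 16572 and 15896 with SI-2 (−0.29, interval −0.87 to 0.29). XBP1, the transcription factor of the secretory programme, was at −0.17 (interval −0.68 to 0.35). In IRF4 vehicle replicate 1 was the library that stood apart.

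Proliferation and metabolism gave medians close to that of all genes, though with 1 library left out the medians of the 7 lists that follow ran from −0.25 to 0.40. Replication and E2F targets had a median of −0.01, with 12 of 24 above 0. CDC6, a replication licensing factor, was the lowest of them, with counts of 4612 and 3990 with vehicle and 2200 and 3469 with SI-2 (log2 fold change −0.62, interval −1.52 to 0.28). Mitosis genes had a median of 0.04, and CDK1 among them was at 0.16 (interval −0.18 to 0.49). Cholesterol synthesis had a median of 0.06, glycolysis and the hypoxia response −0.06, and NRF2 antioxidant genes −0.07. Interferon-stimulated genes had a median of 0.10 and p53 targets −0.02. CDKN1A, the cell cycle inhibitor p21, had 1403 and 1463 with vehicle and 1117 and 1457 with SI-2 (−0.17, interval −0.58 to 0.23).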

How the data were processed

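The sequenced samples were total RNA of LP-1 cells, 2 libraries in each of 4 conditions. The deposited gene table held the authors' estimated counts, in which a read that fits several genes is split between them so that values can be fractional. It also held expression values the authors computed, whose column headers name no unit and which were taken here to be FPKM. The submitters' processing notes name BWA, Bowtie2, RSEM and hg19, and the paper's methods describe a BGISEQ platform. The tables also held log2 fold changes, p-values and q-values of the authors' comparisons from DEGseq, 8 columns of condition averages, and values per transcript, none of which was used here. Of 18564 genes in the table, 25 had a date in place of their symbol, and 18267 could be matched by identifier to RefSeq on GRCh38.p14, which served for names and promoters only, since the build differs.

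The counts were rounded, genes with low counts were dropped by filterByExpr, which kept 13896, and libraries were scaled by TMM. The main test was edgeR's quasi-likelihood F-test (version 4.0.16, R 4.3.3), fitted over all 8 libraries so that the 4 conditions shared 1 estimate of the spread. The median total degrees of freedom were 8.96 and the biological coefficient of variation was 0.179. Benjamini-Hochberg adjustment ran over all tested genes, and genes were called at an adjusted p under 0.05. The 95% intervals were computed from the standard error and the t distribution on the total degrees of freedom. Library differences were taken on log2(CPM + 2). Intervals and floors (3 counts for a count of 0) cover no error beyond the model, and reads without molecular identifiers are not independent molecules. The total counts per library, 17997771 to 18570027, limit the precision of genes with low counts.

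Genes named were the SRC coactivators and partners, the genes the study linked to SRC-3, the 6 genes with the smallest p in each direction with a mean count of at least 50, examples among the 2 members of each list with the smallest p and the 2 with the highest FPKM, and any gene an alternative called. A few others were named for their role or after their values had been seen. The comparison, the members of the lists and the rules were chosen with earlier results of these data known. The alternatives were other scalings and filters, DESeq2 1.42.0, a newer form of the edgeR fit, limma 3.58.1 on log2(FPKM + 1) and log2(FPKM + 0.1), the 4 WT libraries alone, 1 surrogate variable from sva 3.50.0, a replicate block, and leaving out each library. The edgeR fit with its intervals, DESeq2 and limma were tested on simulated counts, with libraries drawn independently and no effect shared by replicate number. The other steps were not tested in that way. Single values of 1 listed gene are not reported here, though list totals include it.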

Additional observations from a re-analysis of the deposited data

How the results depend on the processing

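The count of called genes in WT cells stayed at 0 in 20 of 22 alternatives. It was 1 with DESeq2 (ANKRD20A2, adjusted p = 0.0343), as was the interaction count (CORO7-PAM16). The labels do not say whether replicate numbers pair the libraries, and the main fit held no term for them. Deviations from the group means were correlated at 0.577 between WT vehicle and WT SI-2. The value was 0.524 between BR vehicle and BR SI-2. Between groups of different lines it lay from −0.25 to 0.21. By these deviations, same-numbered libraries went together within each line, and whether they were paired was not tested. By mean chi-square, WT vehicle replicate 1 stood nearer to BR vehicle replicate 1 (16.9) than to WT SI-2 replicate 1 (25.9). WT SI-2 replicate 1 likewise stood nearer to BR SI-2 replicate 1 (17.7). In replicate 2 the nearest pairs were those within a line, at 4.10 in WT and 4.82 in BR cells. A replicate block over both lines gave 0 called genes and 121 at an unadjusted p under 0.05, against 74 without it. Chosen after seeing the data, a replicate block within each line gave 0 and 453, and a replicate block with only the 4 WT libraries gave 13 called genes and 903 at an unadjusted p under 0.05. These were JUN, VDR, RGS1, DUSP8 and RAB30, the loci that share reads (ANKRD20A2, RGPD2, CORO7-PAM16, ATP5MF-PTCD1, HSPE1-MOB4 and RNF103-CHMP3), and the uncharacterised LOC102724219 and LOC102724951. That last fit has 1 residual degree of freedom per gene. Leaving out each library called 0 genes, with 65 to 405 at an unadjusted p under 0.05, the highest without WT SI-2 replicate 2 (smallest adjusted p 0.051). Genes with an interval within 2-fold numbered from 8422, without WT SI-2 replicate 2, to 13425 with limma on log2(FPKM + 1). Of the 22 list medians, 13 changed sign under at least 1 alternative and 9 kept it. Across all tested genes, r between SI-2 minus vehicle of replicate 1 and of replicate 2 was 0.084, and it was 0.056 with log2(CPM + 0.5) and 0.12 over genes of at least 10 CPM. The depth limits the genes below 10 CPM, and a pair of libraries in each condition limits all of them.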
